A study of Mus musculus with 2 samples.

Results

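Semaphorins, the secreted or membrane-bound ligands of axon guidance, were examined together with their receptors, the plexins and neuropilins, in the central nervous system of mouse embryos. The set holds 31 genes, chosen by name as the semaphorin, plexin and neuropilin genes of the mouse: 20 semaphorins, 9 plexins and 2 neuropilins. Each symbol matched 1 of the 43346 Ensembl gene rows of the deposited tables. All values come from 1 group with 2 biological replicates, C57BL/6J embryos with no treatment or allele named at embryonic day 11.5. Each library was made from the tissue of littermates of both sexes, so that a value describes pooled embryos, and the labels give no limits of the dissection. With 1 group no condition could be compared, so no p-value is given. An SD over n = 2 measures the spread between these libraries, and both carry the same donor label.

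A semaphorin binds a plexin through its sema domain, and the plexin's intracellular part then acts on small GTPases and the cytoskeleton, most often turning a growing axon or migrating cell away. Most secreted class 3 semaphorins need a neuropilin beside a class A plexin to be received, whereas the transmembrane classes bind plexins directly. In the neural tube these signals shape axon tracts, the exit of motor and sensory axons, the path of neural crest cells and the growth of vessels.

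The libraries held 120461126 and 108007021 expected counts on Ensembl genes in replicates 1 and 2. The members took 266993 and 279544 of them, which is 0.222% and 0.259%. Levels are given in TPM, a measure of transcript abundance that is corrected for transcript length, so that genes can be compared. Ratios are replicate 2 over replicate 1, computed on the expected counts after scaling. Brackets hold exact 95% binomial intervals, which reflect the number of reads counted and no other source of variation. The libraries differed in mitochondrial RNA, which held 1.35% of TPM in replicate 1 and 6.78% in replicate 2, and in regional and tissue markers. Trunk Hox genes summed to 4.67 TPM in replicate 1 and 171 TPM in replicate 2, and all 7 were higher by 2-fold or more in replicate 2. Somite and muscle genes summed to 27.1 and 112 TPM, with 6 of 7 higher, while 4 of 7 forebrain genes were at least 2-fold lower. Among all genes with 100 summed counts or more, 6.34% were at least 2-fold higher and 5.05% lower. Because these are bulk libraries, fewer cells of a type and less RNA per cell cannot be told apart.

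Of the 31 members, 28 reached 1 TPM in both libraries, where 60.8% of the 21474 protein-coding genes did. The set's median level was 10.8 TPM, against 5.29 TPM over all protein-coding genes and 20.2 TPM over those at 1 TPM in both libraries. Above 10 TPM in both libraries stood 13 members, a count without a matching share over all genes. The exceptions below 1 TPM were Sema3d at 0.83 TPM in replicate 1 and 3.31 TPM in replicate 2, Sema3e at 0.73 and 0.88 TPM, and Plxnb3 at 0.20 and 0.34 TPM. The order of the members by level was similar in the libraries, with a Spearman rho of 0.963 across the 31 genes. Genes are not independent replicates, so that value is a description. Together the members summed to 749 and 868 TPM, of which semaphorins held 50.0% and 49.8%, plexins 46.1% and 43.8%, and neuropilins 3.92% and 6.41%.

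**Figure D1:**
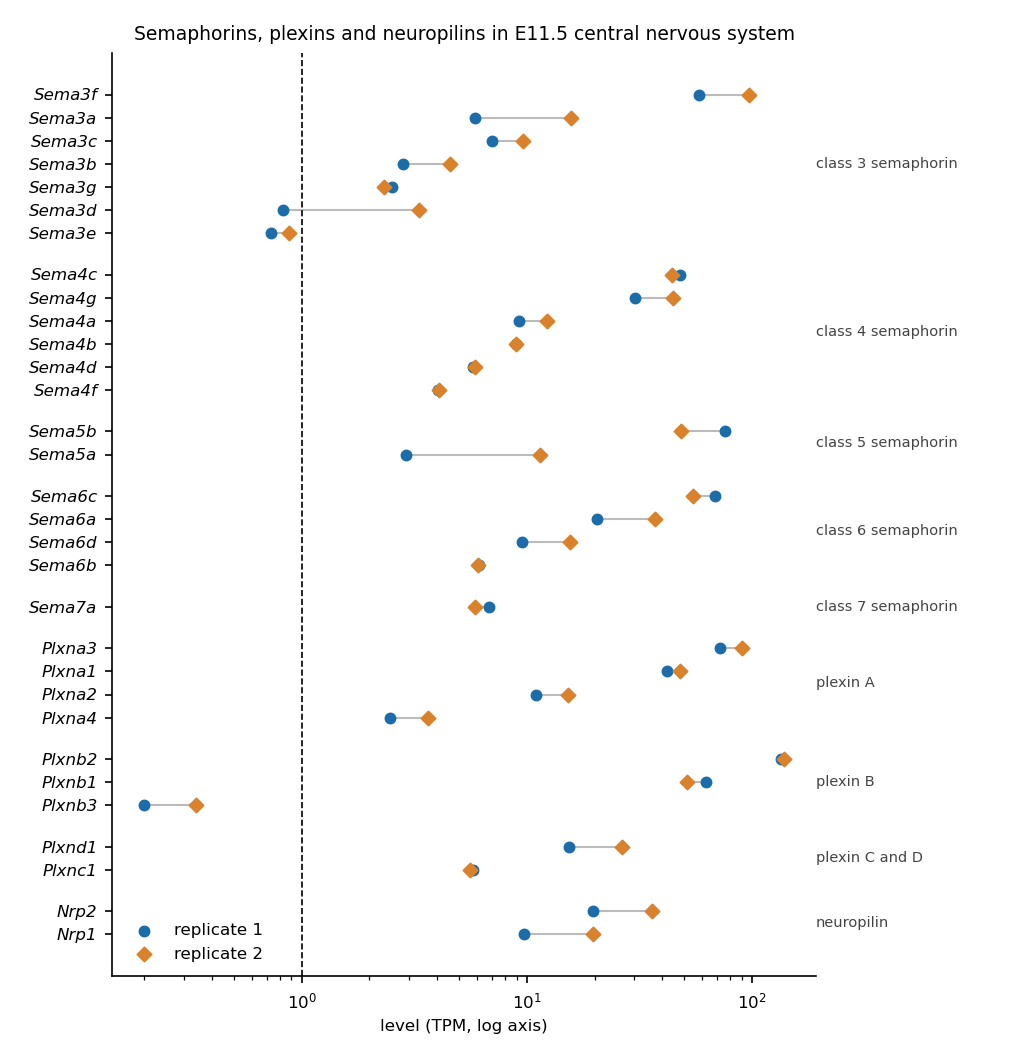
Level of each member in TPM on a log axis, grouped by class, with replicate 1 as circles and replicate 2 as diamonds; the dashed line marks 1 TPM. Plxnb2 is highest at 134.51 and 138.70 TPM, and Sema3e and Plxnb3 lie left of the line in both libraries.

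Receptors of the plexin B class held the largest summed level of any class in both libraries, at 197 and 191 TPM. Plxnb2, a receptor of class 4 semaphorins needed for neural tube closure in mice, was the highest of all 31 members, at 134.51 and 138.70 TPM (137 ± 2.96, SD, n = 2). Plxnb1, a receptor of Sema4d, followed within the class at 62.19 and 51.60 TPM (56.9 ± 7.49). Plxnb3 stood at the other end of the whole set, on only 62 and 111 counts. The spread between the libraries was small for Plxnb2 and Plxnb1 beside the gap between them.

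Plexins of class A, the signalling partners of neuropilins and the receptors of class 6 semaphorins, summed to 127 and 157 TPM. Plxna3 had 71.96 and 90.53 TPM (81.2 ± 13.1) and Plxna1 had 41.99 and 47.73 TPM (44.9 ± 4.06). Plxna2 lay at 10.93 and 15.24 TPM, and Plxna4, a receptor for Sema3a and Sema6a in axons, was lowest at 2.48 and 3.65 TPM (3.07 ± 0.827). In total TPM the 4 class A plexins did not overlap between neighbouring genes. In protein-coding transcripts alone Plxna1 stood above Plxna3, at 41.99 and 47.73 TPM against 22.62 and 29.48 TPM. Of the remaining plexins, Plxnd1, known for its part in vessel patterning and as the receptor of Sema3e, had 15.41 and 26.52 TPM, and Plxnc1, a receptor of Sema7a, had 5.77 and 5.58 TPM. Both libraries thus held transcripts of Plxnd1 beside a Sema3e level under 1 TPM.

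The neuropilins, co-receptors of class 3 semaphorins that also bind VEGF, were both higher in replicate 2. Nrp2, which receives Sema3f, had 19.69 and 35.90 TPM, and its scaled counts were 1.59-fold higher in replicate 2 [1.56 to 1.63]. Nrp1, which receives Sema3a, had 9.68 and 19.73 TPM, 1.78-fold higher in replicate 2 [1.72 to 1.85]. Neither reached the 2-fold line on scaled counts. On log2(TPM + 0.1) the ratio of Nrp1 was 1.02 and passed it.

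Among the secreted class 3 ligands, Sema3f, which repels axons and neural crest cells carrying Nrp2, was by far the highest, at 58.43 and 97.04 TPM (77.7 ± 27.3). The others lay at means between 0.805 TPM for Sema3e and 10.8 TPM for Sema3a. Sema3c, a guidance factor for neural crest cells of the heart outflow tract, had 6.99 and 9.63 TPM. Sema3b had 2.83 and 4.56 TPM and Sema3g had 2.51 and 2.32 TPM. Class 3 summed to 78.2 TPM in replicate 1 and 133 TPM in replicate 2. On scaled counts 6 of its 7 genes were higher in replicate 2, where 49.4% of all genes tested were, and Sema3g was the exception. For Sema3e the interval of the ratio spanned equality, at 1.08-fold [0.942 to 1.25].

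Class 4 semaphorins, transmembrane ligands of B plexins, were all above 1 TPM in both libraries, with summed levels of 106 and 120 TPM. Sema4c, a ligand of Plxnb2, led them at 47.70 and 44.07 TPM (45.9 ± 2.57). Sema4g had 30.30 and 44.50 TPM, Sema4a 9.28 and 12.29 TPM, and Sema4b 8.94 and 8.95 TPM. Sema4d had 5.78 and 5.89 TPM, and Sema4f was lowest at 4.05 and 4.09 TPM (4.07 ± 0.0283). On scaled counts 4 of the 6 genes were lower in replicate 2, with a class median log2 ratio of -0.19. For Sema4b, Sema4d and Sema4f the sign turned on the TPM scale, so no direction is read for them. A gene annotated as a processed transcript, D430040D24Rik, lies opposite Sema4c and had 724 and 387 counts.

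The class 5 genes, transmembrane ligands with thrombospondin repeats, moved in opposite directions between the libraries. Sema5b had 76.04 and 48.53 TPM (62.3 ± 19.5) and its scaled counts were 1.66-fold lower in replicate 2 [1.61 to 1.70]. Sema5a had 2.92 and 11.40 TPM and was 3.43-fold higher in replicate 2 [3.28 to 3.58]. The levels of Sema5a and Sema5b did not overlap.

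Class 6 semaphorins, transmembrane ligands of A plexins, summed to 105 and 113 TPM. Sema6c was highest at 68.33 and 54.49 TPM (61.4 ± 9.79) and 1.68-fold lower in replicate 2 on scaled counts [1.64 to 1.72], or -0.32 as a log2 ratio of TPM + 1. Sema6a, a ligand of Plxna2 and Plxna4, had 20.58 and 37.17 TPM, and Sema6d, a ligand of Plxna1, had 9.55 and 15.53 TPM. Sema6b was lowest at 6.16 and 6.06 TPM (6.11 ± 0.0707). The only class 7 member, Sema7a, is held in the membrane by a lipid anchor and binds integrin beta 1 as well as Plxnc1. It had 6.79 and 5.89 TPM (6.34 ± 0.636).

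The members called different between the libraries were 3 ligands, Sema3a, Sema3d and Sema5a, all at least 2-fold higher in replicate 2. The same call was made for 6.34% of all 16511 genes that had 100 summed counts or more. None of the 31 members was at least 2-fold lower, where 5.05% of all genes were. With 1 library on each side these are differences between libraries without a test. Sema3a, the classic repellent of sensory and motor axons, had 5.89 and 15.68 TPM from 2363 and 5489 counts. It was 2.37-fold higher in replicate 2 [2.26 to 2.49]. Sema3d, another secreted class 3 ligand, had 451 and 1536 counts and was 3.48-fold higher [3.13 to 3.87]. All 3 intervals lay above 2.

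The median log2 ratio of the 31 members was 0.25, against -0.01 over the genes tested. Of the members, 18 were above 0 and 13 below, where 49.4% of all genes tested were above 0. Within 1.5-fold of equality stood 20 of 31, where 70.9% of all genes did. The members nearest to equality were Plxna1, at a log2 ratio of -0.01, and Plxnb2, at -0.10. The sign held in every scaling tried for 26 members and changed in some scaling for Sema4b, Sema4d, Sema4f, Plxna1 and Plxnb2.

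**Figure D2:**
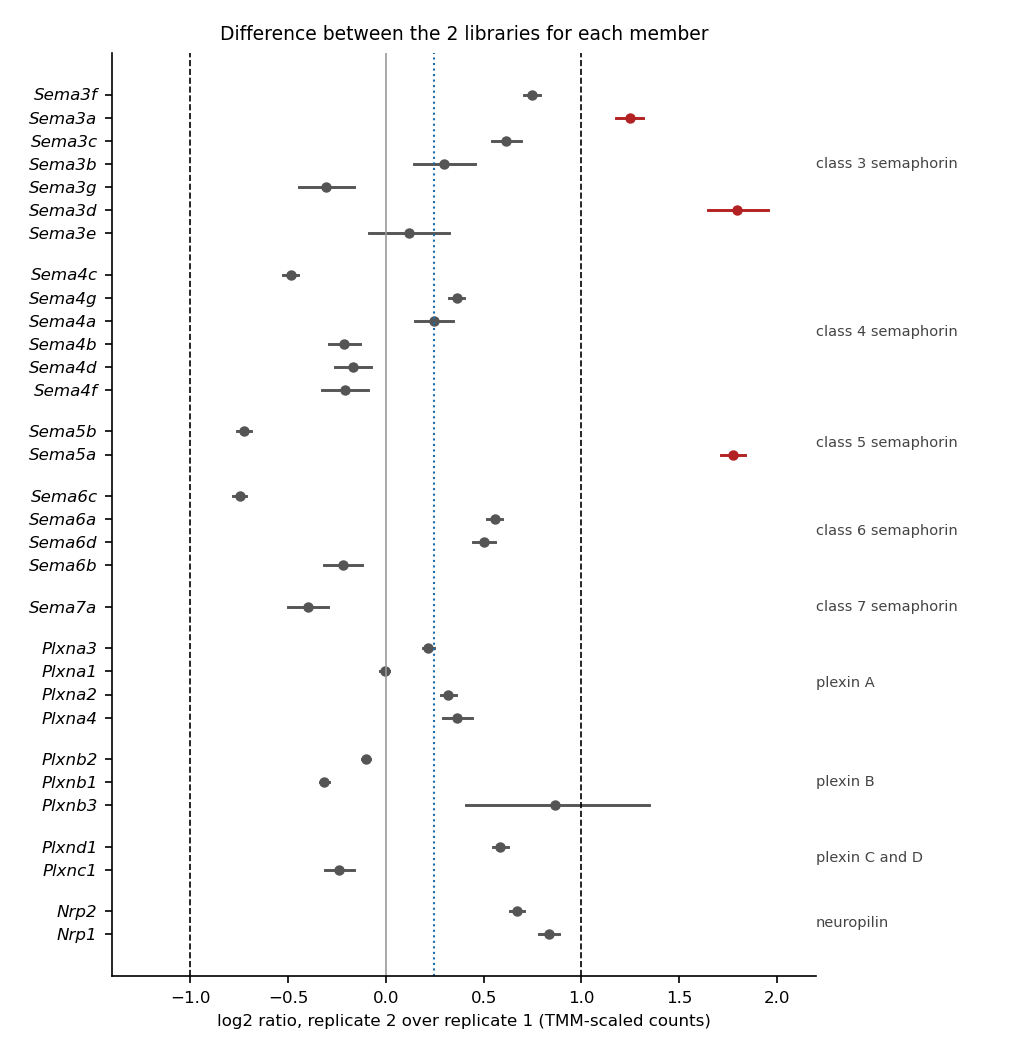
Log2 ratio of replicate 2 over replicate 1 for each member on scaled counts, with bars for the exact 95% interval of counting error; dashed lines mark 2-fold and the dotted line the members' median of 0.25. Sema3a, Sema3d and Sema5a, in red, lie wholly right of the 2-fold line, and no member lies left of -1.

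The bases before the RefSeq start of these 3 ligands are shown because the genes differed in the same direction between the libraries. They are the 250 bases upstream of the RefSeq start on GRCm38.p6, all on the plus strand: chr5:13396534-13396783 for Sema3a, chr5:12382916-12383165 for Sema3d and chr15:32244563-32244812 for Sema5a. Capitals mark matches, on either strand, to GGGCGG, the core of a GC box. The motifs TATAAA and TAATTA were searched in the same way.
Sema3a: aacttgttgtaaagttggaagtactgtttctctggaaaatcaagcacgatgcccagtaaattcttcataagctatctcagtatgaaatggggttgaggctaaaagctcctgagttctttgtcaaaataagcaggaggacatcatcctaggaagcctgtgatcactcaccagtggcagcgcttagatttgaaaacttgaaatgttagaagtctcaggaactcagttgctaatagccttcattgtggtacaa
Sema3d: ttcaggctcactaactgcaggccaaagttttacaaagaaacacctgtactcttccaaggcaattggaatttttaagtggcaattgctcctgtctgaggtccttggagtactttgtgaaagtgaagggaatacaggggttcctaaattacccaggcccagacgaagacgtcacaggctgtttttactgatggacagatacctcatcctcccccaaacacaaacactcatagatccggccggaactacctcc
Sema5a: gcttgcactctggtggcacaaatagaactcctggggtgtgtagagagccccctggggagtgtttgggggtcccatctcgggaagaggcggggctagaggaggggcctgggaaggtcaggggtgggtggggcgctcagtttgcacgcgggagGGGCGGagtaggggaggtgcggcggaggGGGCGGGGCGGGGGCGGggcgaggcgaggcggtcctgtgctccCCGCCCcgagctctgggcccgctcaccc
The Sema5a window held 5 matches to GGGCGG, some of them overlapping, and the windows of Sema3a and Sema3d held none. Among all 32851 windows of this length 32.7% held GGGCGG, 12.4% TATAAA and 4.84% TAATTA. For 26 members RefSeq windows were at hand, 37 in all, of which 27 held GGGCGG and 0 held TATAAA or TAATTA. The pair CG occurred 2 times in the Sema3a window, 4 times in that of Sema3d and 17 times in that of Sema5a, against a median of 6 over all windows and 13 over those of the members. The Sema3a window lies 271370 bases inside the gene as GENCODE draws it, since other transcripts of the gene begin upstream. It ends at the start of Sema3a-202, while Sema3a-201 starts 2525 bases further on. A match is a description of letters and shows no binding.

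Sema5a shares its start region with a gene on the other strand. Snhg18, a long noncoding RNA host gene on the minus strand at chr15:32240565-32244662, begins 148 bases from the annotated start of Sema5a. It was looked up after the values of Sema5a were seen. Snhg18 had 4.83 and 11.20 TPM from 539 and 1061 counts, and was 2.01-fold higher in replicate 2 [1.81 to 2.24]. Sema3d, Sema3a, Sema3e and Sema3c lie in 1 row on chromosome 5, with gaps of 536, 423 and 3318 kb between neighbours. The genes of this row did not move by the same amount, since their scaled ratios in that order were 3.48, 2.37, 1.08 and 1.53. Sema3b and Sema3f lie 72.3 kb apart on chromosome 9, at 1.23-fold and 1.68-fold.

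A large part of the level of several members came from transcripts that the annotation does not class as protein-coding, such as those with a retained intron. Such transcripts held more than 20% of the TPM in both libraries for 9 members, and the share of all genes past that line was not computed. The median share over all members was 5.78% in replicate 1 and 9.72% in replicate 2, and over protein-coding genes at 1 TPM in both libraries it was 2.11% and 2.46%. For Plxna3 the share was 68.6% and 67.4%, and its protein-coding transcripts came to 22.62 and 29.48 TPM. For Sema5b it was 58.8% and 44.6%, for Sema3f 57.5% and 41.4%, and for Sema4a 58.4% and 49.3%. Plxnb2 had 45.1% and 42.7%, and Sema6c 46.4% and 54.5%. By contrast the class A receptor Plxna1 and both neuropilins had shares under 1%.

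Counting protein-coding transcripts alone changed the order of the receptors. Plxnb2 remained the highest at 73.78 and 79.51 TPM. Plxna1 came to rank 2 at 41.99 and 47.73 TPM, from rank 8, while Plxna3 went to rank 11 from rank 2. Of the 10 highest members by total TPM, 9 were also among the 10 highest by this count, and Spearman's rho between the orders was 0.955 over the 31 genes. Some of the other models are short, such as Plxna3-203 at 984 bases and Plxnb2-205 at 841 bases, and the division of reads between overlapping models is an estimate of the authors' quantifier.

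**Figure D3:**
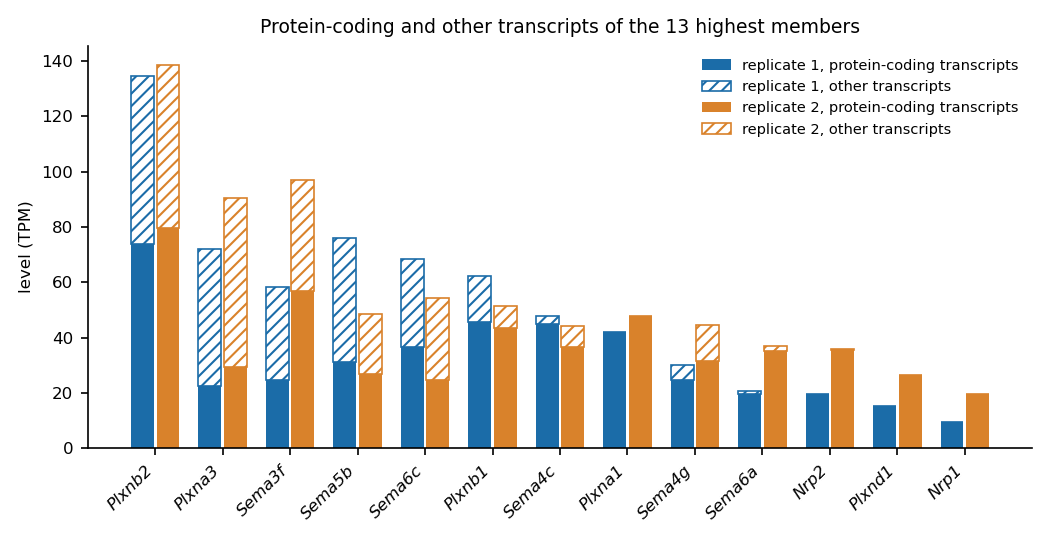
TPM of the 13 members with the highest mean, in replicate 1 (blue) and replicate 2 (orange), with protein-coding transcripts as filled bars and all other transcripts as hatched bars on top. Plxna3 is mostly hatched in both libraries, while Plxna1, Plxnd1 and Nrp1 are filled throughout.

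For 17 of the 23 members at 1 TPM in both libraries with several transcripts, the same transcript was the most abundant in each library. Over all 9970 such genes the share was 79%. The 6 that differed were Sema3a, Sema3b, Sema3f, Sema5b, Sema6c and Plxna3. Sema3a-202 held 55.8% of the gene in replicate 1 and 31.1% in replicate 2, and Sema3a-201 held 43.2% and 60.8%. These transcripts have the same coding exons, so they differ outside the coding sequence, at lengths of 4085 and 5930 bases. Sema3b also changed between transcripts with equal coding exons, Sema3b-201 at 0.72 and 0 TPM and Sema3b-204 at 0 and 1.63 TPM, with the gene on only 612 and 737 counts.

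In Sema3f, Sema6c and Sema5b the leading transcripts did not share a coding sequence. Sema3f-204, with 2355 coding bases, had 8.67 TPM in replicate 1 and 29.15 TPM in replicate 2, and Sema3f-201, with 2262, had 12.91 and 20.66 TPM. Sema6c-203 had 20.17 TPM in replicate 1 and 0.71 TPM in replicate 2, and Sema6c-213 had 5.87 and 12.98 TPM. The noncoding Sema5b-208 had 23.91 and 0.86 TPM, while the coding Sema5b-201 stayed at 18.36 and 20.54 TPM. The difference in Sema5b between the libraries thus lay mostly in transcripts other than Sema5b-201. For Plxna3 the coding Plxna3-201 and the retained-intron model Plxna3-203 were nearly level, at 22.62 and 20.79 TPM in replicate 1 and 29.48 and 29.79 TPM in replicate 2.

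Nrp2 encodes receptors with different membrane-spanning and intracellular ends, called a and b forms, and its splice forms were read from transcripts and from junction reads. The ends of its coding sequence are shown because the choice between them sets which form of the receptor is made. Each line starts with the same last 21 bases of a shared exon in lower case, on mm10, plus strand. Capitals mark the 51-base cassette exon in Nrp2-202 (chr1:62812534-62812584), the 15 bases added by a later donor in Nrp2-206 (chr1:62786302-62786316), and the first 72 bases of the last coding exon in Nrp2-204 (chr1:62815333-62815404) and Nrp2-205 (chr1:62795709-62795780).
Nrp2-202: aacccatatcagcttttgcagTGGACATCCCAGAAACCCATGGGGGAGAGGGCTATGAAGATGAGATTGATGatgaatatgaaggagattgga
Nrp2-206: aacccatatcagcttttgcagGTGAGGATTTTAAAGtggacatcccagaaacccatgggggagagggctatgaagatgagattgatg
Nrp2-204: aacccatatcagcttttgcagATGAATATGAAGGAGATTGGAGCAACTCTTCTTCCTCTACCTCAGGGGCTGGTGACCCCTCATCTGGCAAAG
Nrp2-205: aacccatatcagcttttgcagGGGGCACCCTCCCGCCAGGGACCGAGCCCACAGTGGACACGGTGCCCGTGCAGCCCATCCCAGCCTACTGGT
The a form with the cassette, Nrp2-202, was the most abundant, at 11.13 TPM in replicate 1 and 16.92 TPM in replicate 2. Without the cassette, Nrp2-204 had 4.64 and 8.90 TPM. The b form, Nrp2-205, had 2.97 and 7.20 TPM. Transcripts with the b end held 15.1% of Nrp2 in replicate 1 and 20.9% in replicate 2, and those with the 15 extra bases 4.01% and 7.07%.

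Junction reads gave the splice choice directly. The deposited junction list, on mm9, holds a first and a second value that no label ties to a replicate. The shares are over 4 paths from the shared exon, each with at least 20 summed reads. Other paths from the later donor, as in Nrp2-203 and Nrp2-201, were not counted. In the first value 236 of 289 reads led into the 51-base exon, which is 81.7% [76.7 to 86.0]. In the second value 213 of 356 did, 59.8% [54.5 to 64.96]. Of these reads, 2 in the first value and 23 in the second used the donor 15 bases further on, and 234 and 190 the earlier one. Into the other last exon, that of the b form, went 27 reads or 9.34% [6.25 to 13.3] in the first value and 103 reads or 28.9% [24.3 to 33.9] in the second. The intervals of these shares did not overlap between the values, whereas those for skipping the cassette did, at 9.00% [5.96 to 12.9] and 11.2% [8.15 to 14.98]. Both sources thus had the cassette form as the most frequent form in each library or value, but they differed in the other shares. By transcripts, the a end without the cassette held 24.1% and 25.8% of Nrp2 in replicates 1 and 2, above the skipping shares of junction reads. For the b end, transcripts had 15.1% and 20.9%, against 9.34% and 28.9% of reads in the first and second values.

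**Figure D4:**
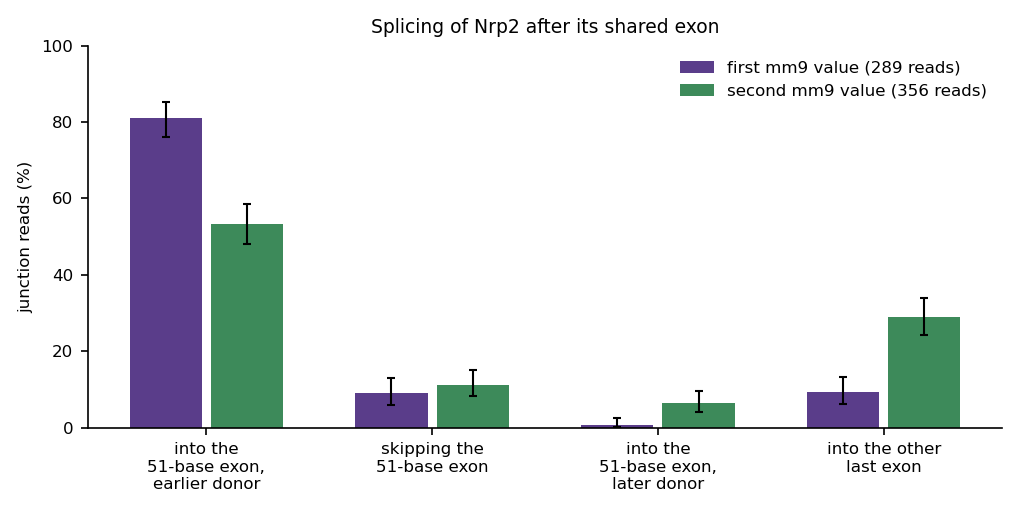
Share of junction reads over 4 paths from the shared exon of Nrp2, each with at least 20 summed reads, in percent. Bars are the first (purple, 289 reads) and second (green, 356 reads) mm9 value, with exact 95% intervals. From the earlier donor 81.0% of reads enter the 51-base exon in the first value and 53.4% in the second, and the share into the other last exon is 9.34% and 28.9%.

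Sema6d has alternative exons before its last coding part. They are shown because reads divided between including and skipping them. Both come from Sema6d-206 on the plus strand of mm10, in capitals between 21 flanking bases: a 57-base exon at chr2:124660705-124660761, and a 168-base exon at chr2:124662204-124662371.
Sema6d 57-base exon: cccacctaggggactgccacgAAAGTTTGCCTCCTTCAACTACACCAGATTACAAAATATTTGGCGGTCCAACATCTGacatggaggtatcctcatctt
Sema6d 168-base exon: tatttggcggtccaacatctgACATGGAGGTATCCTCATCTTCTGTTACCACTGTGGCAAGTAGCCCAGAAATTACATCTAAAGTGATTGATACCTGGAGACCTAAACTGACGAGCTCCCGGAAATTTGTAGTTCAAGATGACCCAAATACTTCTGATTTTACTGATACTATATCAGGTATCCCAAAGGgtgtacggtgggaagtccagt
Sema6d-206, which has both, had 3.11 TPM in replicate 1 and 5.87 TPM in replicate 2, and Sema6d-208, which has neither, had 2.45 and 3.45 TPM. Only junctions with at least 20 summed reads were counted. From the shared donor, 31 of 62 junction reads of the first mm9 value skipped both exons, 50.0% [37.0 to 63.0]. In the second value 30 of 117 did, 25.6% [18.0 to 34.5]. Reads into the first exon were 13 and 30, and reads into the second 18 and 57. To the last acceptor, 23 and 36 reads left from the end of the 168-base exon, and 14 and 22 from an earlier donor within it. The intervals of the skipped share did not overlap, and it was lower in the second value.

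The mm9 gene table, quantified separately by the authors, gave a similar order of levels. All 31 members had an RPKM value there, and Spearman's rho between mean RPKM and mean TPM was 0.985 across the members. The 10 highest members were the same 10. On log2(RPKM + 0.1), 4 members were at least 2-fold higher in the second value, Sema3a, Sema3d, Sema4a and Sema5a, where 4.27% of 15494 genes were. None of the members was at least 2-fold lower, where 3.75% of genes were. Junction reads summed over a gene were scaled by all junction reads, 72242374 in the first value and 57754886 in the second, without TMM. On that scale 6 members were at least 2-fold higher in the second value, where 9.21% of 13459 genes were. At least 2-fold lower were 0 members, where 3.08% of genes were. The 6 were Sema3a, Sema3d, Sema3f, Sema5a, Plxnb3 and Nrp1. Sema3f and Nrp1 had log2 ratios of 1.13 there, against 0.75 and 0.83 on TMM-scaled mm10 counts. Plxnb3 rested on 57 and 110 junction reads. Sema4a had 1.01 and 2.44 RPKM, against 9.28 and 12.29 TPM on mm10. Its 1116 and 1243 junction reads were 1.39-fold higher in the second value after scaling by all junction reads. On TMM-scaled mm10 counts it was 1.19-fold higher in replicate 2.

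The partners and mediators of the pathway were present beside the ligands and receptors. Of 19 co-receptors and other partners, 16 reached 1 TPM in both libraries, where 60.8% of all protein-coding genes did. Of the 17 with at least 100 summed counts, 1 was higher and 0 were lower by 2-fold in replicate 2, with a median log2 ratio of 0.15. Over all genes tested, 6.34% were higher and 5.05% lower. Timd2, outside those 17 genes, had only 66 and 23 counts, a log2 ratio of -1.47. Vegfa, also a ligand of neuropilins, had 141.67 and 138.62 TPM, the integrin Itgb1 119.40 and 119.62 TPM, and the proteoglycan Gpc1 63.58 and 66.98 TPM. The lowest was Cd72, an immune receptor of Sema4d, at 0.33 and 0.30 TPM. Met, a receptor kinase that associates with B plexins, was the partner called higher, at 0.77 and 2.55 TPM.

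All 30 intracellular mediators reached 1 TPM in both libraries, where 60.8% of all protein-coding genes did. By 2-fold 0 were higher and 1 was lower, and the median log2 ratio was -0.15. The actin-severing Cfl1 was highest at 1553 and 1206 TPM, followed by the GTPases Rac1 at 185.78 and 266.74 TPM and Rhoa at 229.50 and 199.42 TPM. Farp2, an exchange factor activated by Sema3a signalling, was lowest at 2.05 and 3.70 TPM. Rnd1, a small GTPase that binds plexins, was called lower, at 10.85 and 6.66 TPM and a log2 ratio of -1.02, though on log2(TPM + 1) it was -0.63. The CRMP genes, which carry the collapse signal of Sema3a, were among them. Dpysl3 had 185.78 and 179.62 TPM and Crmp1 had 162.80 and 170.42 TPM.

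Marker lists of the cell types that such tissue can hold moved between the libraries by very different amounts. The 10 lists hold 70 genes, and 0 of them were at 0 TPM in either library. The median log2 ratio was 5.68 for trunk Hox genes, 4.42 for muscle and somite, 1.53 for motor neurons, 1.11 for sensory ganglia and neural crest and 0.88 for mesenchyme. It was 0.22 for endothelium, -0.10 for macrophages, -0.33 for neurons, -0.82 for neural progenitors and -1.02 for forebrain. Summed levels were 52.6 and 84.6 TPM for ganglia and crest, with 4 of 7 genes at least 2-fold higher, 61.2 and 81.1 TPM for motor neurons, also 4 of 7, and 679 and 687 TPM for mesenchyme, 2 of 7. For endothelium they were 201 and 253 TPM with 0 of 7 called, for neurons 1481 and 1238 TPM with 0 of 7, and for progenitors 3895 and 1962 TPM with 1 of 7 lower. Over all genes tested, 6.34% were higher and 5.05% lower. Vim alone held 2643 and 1153 TPM of the progenitor sums. Within the mesenchyme list Col1a1, Col1a2 and Col3a1 had log2 ratios of -0.86, -0.22 and -0.42, and its other genes were above 0. The part of these differences, or of the mitochondrial share, in the ratios of Sema3a, Sema3d, Sema5a and the neuropilins was not tested.

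**Figure D5:**
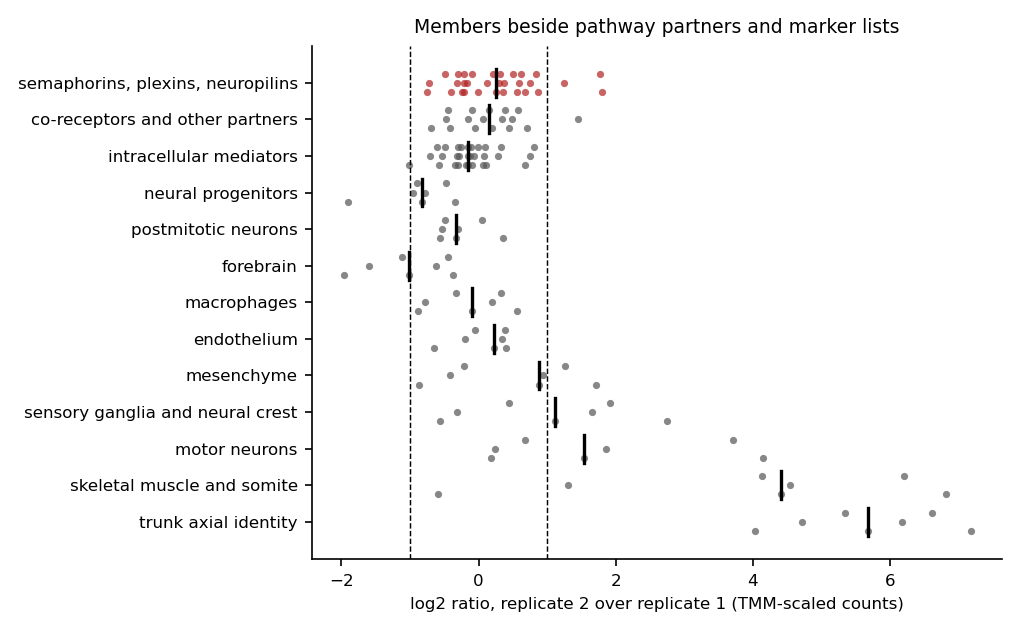
Log2 ratio of replicate 2 over replicate 1 for the 31 members (red), the pathway partners and mediators and the marker lists (grey), 1 point per gene with at least 100 summed counts; black bars are medians and dashed lines mark 2-fold. The members' median is 0.25, whereas those of the muscle and trunk lists are 4.42 and 5.68.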

How the data were processed

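PolyA-selected RNA longer than 200 nucleotides was sequenced as stranded paired-end reads of 101 bases, per the labels. The authors deposited, per the file headers, an expected count and TPM per gene and per transcript on mm10 for each replicate, and RPKM per gene and reads per junction on mm9 for the series. For the aligner and the quantifier, no name was found: not given in the sources used here. Expected counts were rounded and TMM factors from edgeR 4.0.16 set their scale. Alternatives were DESeq2 size factors (version 1.42.0), log2(TPM + 1) and log2(TPM + 0.1). Log2 ratios used a prior count of 0.5, and a gene was called at 100 summed counts and a 2-fold ratio. The ratio step was tested on simulated data. Rows that are not Ensembl genes took 4.67% and 3.30% of counts and stayed out of library sizes.

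Symbols, transcript types and positions came from GENCODE M21 (42462 of 43346 identifiers matched), while the tables were made on an earlier release; 1 of 185 member transcripts had no match. Shares of a gene are transcript TPM over their sum. Junctions on mm9 were tied to exons by exon length and spacing, with no conversion of coordinates. Exon sequences are from GENCODE M21 transcripts of the same length as the deposited ones, and promoter windows from RefSeq. The text gives in each class the highest and lowest member, each member called different and each whose leading transcript differed, and of the pathway lists the 3 highest, the lowest and those called. Members and lists were chosen with earlier results of these data known. Python 3.11.15, pandas 2.3.3, SciPy 1.17.1 and matplotlib 3.10.9 were used.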

Additional observations from a re-analysis of the deposited data

How the results depend on the processing

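The 28 members at 1 TPM were 28 with TPM over nuclear genes and with protein-coding transcripts only (an alternative chosen after seeing the data), 30 at 0.5 TPM, 23 at 5 TPM, and between 28 and 29 with either replicate left out. At 2-fold, 3 members were higher and 0 lower under DESeq2 size factors (6.09% of all genes higher), log2(TPM + 1) (4.17%) and minimum sums of 1 count (17.9%) or 1000 counts (3.26%, with 29 members tested), and 4 were higher under log2(TPM + 0.1) (8.09%). With only 3 or 4 members called in each of these settings, the members' share rests on few genes, and no excess over all genes is read from it. At a line of 1.5-fold, 9 were higher and 2 lower, where 14.8% and 14.2% of all genes were. The median log2 ratio ranged from 0.23 to 0.40 over the scalings, while that of all genes tested moved from -0.03 to 0.14. The leading transcript was the same for 14 of 18 members with protein-coding transcripts only and for 9 of 13 at 10 TPM, where fewer genes were compared. The mm9 RPKM on assembled gene models, found for 30 members, shared 9 of the 10 highest members, with a Spearman rho of 0.841. Mean TPM moved by more than the replicate spread for 13 members with coding transcripts only and for 10 over nuclear genes. No paired analysis was possible because there is 1 group. Counting error was widest for Plxnb3, whose ratio had an interval from 1.33 to 2.54.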
